A study of Homo sapiens with 16 samples.

Results

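The CDK inhibitor genes are the 7 genes of the CIP/KIP family (CDKN1A, CDKN1B and CDKN1C) and the INK4 family (CDKN2A, CDKN2B, CDKN2C and CDKN2D), chosen by symbol from the 27037 gene symbols of the count table. All 7 were found there, and all 7 passed the filter on low counts that left 15415 genes to test. RNA-seq had been collected from SK-N-BE(2)C, a human adrenergic neuroblastoma line with amplified MYCN and a loss on the short arm of chromosome 1. CDKN2C lies on that arm, but the extent of the loss was not given, so its copy number here is not known. Cells received the vehicle DMSO, 10 µM retinoic acid (RA), 1 µM palbociclib (PB, a small molecule that blocks the kinases CDK4 and CDK6) or both agents at those doses (PB+RA) for 5 days, with 4 replicates per group and the same growth medium in all. All values are therefore from 1 cell line at 1 dose of each agent and 1 time point. The total count per sample ran from 19515779 to 31620821.

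As background, progression from G1 to S phase is driven by cyclin D with CDK4 or CDK6 and by cyclin E or A with CDK2, which together phosphorylate the retinoblastoma protein and free the E2F transcription factors. The INK4 proteins bind CDK4 and CDK6 and keep cyclin D from activating them, so they act at the same kinases that palbociclib blocks. The CIP/KIP proteins bind whole cyclin-CDK complexes, inhibit CDK2 and are also held by cyclin D complexes, and they are known to accumulate as neural cells leave the cell cycle. Much of the control of p27, the product of CDKN1B, lies in protein turnover, which RNA counts do not measure. In bulk RNA, fewer cells expressing a gene and less RNA per cell cannot be told apart.

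RA raised CDKN1A and CDKN2B, 1 gene of each family. PB lowered CDKN2C, CDKN1B and CDKN1A. CDKN1A was the member with called changes in opposite directions under the agents alone. Its fall in PB was only just past the threshold and lost the call in some alternatives. In PB+RA, CDKN1A and CDKN2B stood above DMSO while CDKN2C and CDKN1B stood below it. CDKN1C was barely expressed, and its reads are given as a description. CDKN2A and CDKN2D were called in none of the 5 comparisons. The fall of CDKN2A in PB+RA against DMSO (-0.48 on the log2 scale) was only just under the threshold and was called in some alternatives. The promoters of the 4 well expressed genes with called changes are shown first. The results turn on these genes: CDKN1A and CDKN2B, raised by RA, and CDKN1B and CDKN2C, lowered by PB. Each is the 250 bases before the start of the canonical transcript, 5′ to 3′ on the gene's strand, from RefSeq on GRCh38.p14. Capitals mark matches to GC boxes (GGGCGG, a site of SP1-like factors), CCAAT boxes (CCAAT, a site of NF-Y) and the E-box CACGTG (a site of MYC-like factors), read on both strands.
CDKN1A, chr6:36678464-36678713, plus strand: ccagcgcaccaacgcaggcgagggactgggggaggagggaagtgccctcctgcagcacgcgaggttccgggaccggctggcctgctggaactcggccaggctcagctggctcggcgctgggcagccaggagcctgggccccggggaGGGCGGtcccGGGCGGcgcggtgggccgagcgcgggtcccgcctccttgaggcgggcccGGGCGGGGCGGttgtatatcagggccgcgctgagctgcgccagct
CDKN2B, chr9:22009306-22009555, minus strand: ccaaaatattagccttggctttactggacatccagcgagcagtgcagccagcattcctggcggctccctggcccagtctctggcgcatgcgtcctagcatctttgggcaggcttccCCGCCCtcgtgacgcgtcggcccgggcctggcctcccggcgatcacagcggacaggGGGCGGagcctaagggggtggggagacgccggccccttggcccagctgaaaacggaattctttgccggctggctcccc
CDKN1B, chr12:12717118-12717367, plus strand: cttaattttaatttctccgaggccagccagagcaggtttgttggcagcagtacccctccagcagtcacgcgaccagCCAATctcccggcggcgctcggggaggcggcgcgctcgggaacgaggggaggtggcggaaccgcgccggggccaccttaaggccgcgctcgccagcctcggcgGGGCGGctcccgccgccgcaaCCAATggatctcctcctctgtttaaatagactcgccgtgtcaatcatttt
CDKN2C, chr1:50969995-50970244, plus strand: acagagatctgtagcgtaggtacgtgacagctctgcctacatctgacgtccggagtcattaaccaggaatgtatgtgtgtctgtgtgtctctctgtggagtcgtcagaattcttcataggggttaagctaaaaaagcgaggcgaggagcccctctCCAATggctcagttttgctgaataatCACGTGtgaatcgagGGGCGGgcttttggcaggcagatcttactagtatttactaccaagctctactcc

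The CDKN1A window held 4 GC box matches, 2 of them overlapping, and the CDKN2B window 2. CDKN1B had 1 GC box match and 2 CCAAT boxes, and CDKN2C had 1 match each of the GC box, the CCAAT box and the E-box. RefSeq gave 9 such windows for 6 of the 7 members, and 7 of the 9 had a GC box match, against 42.6% of the 35116 promoter windows of the same length. CCAAT was found in 3 of the 9, against 32% of all windows, and the E-box in 2, both of CDKN2C, against 6.34%. The half-site of retinoid receptors (AGGTCA or AGTTCA), held by 19.7% of all windows, was in none of the 9. The forkhead motif GTAAACA, the TATA box TATAAA and the cell-cycle homology element (TTTGAA or TTCGAA) were also in none of the 9, against 2.98%, 10.7% and 14.3% of all windows. An E2F motif (TTTCGCGC, TTTGGCGC, TTCCCGCC or TTGGCGGG) was matched in 1 window, an alternative CDKN2C start that is not shown, against 4.57% of all windows. The shares over all windows were not matched for GC content, and windows of the same gene were counted separately. These are matches of letters in short windows, not measured binding sites.

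The genes lie at 6 loci on GRCh37, the build the reads were aligned to. CDKN1A spans chr6:36644237-36655114, CDKN1B chr12:12838432-12875303, CDKN1C chr11:2904443-2907005, CDKN2C chr1:51426417-51440306 and CDKN2D chr19:10677136-10679735, in the GENCODE annotation. CDKN2A (chr9:21967751-21995300) and CDKN2B (chr9:22002902-22009304) are neighbours on the minus strand. The counts do not separate the products of CDKN2A, p16 and ARF, which are read from overlapping exons. CDKN2A and CDKN2B share little sequence at read length: 31 of 4106 stretches of 50 bases in the CDKN2A transcripts also occur in CDKN2B. The libraries were directional, but the strand setting of the counts was not given in the sources used here, so reads of genes on the opposite strand may be included. CDKN2B-AS1, which overlaps CDKN2A on the opposite strand, had at most 39 reads in a sample, and DINOL, which overlaps CDKN1A, at most 11. An annotated gene without a symbol also shares exon bases with CDKN2C on the opposite strand, and no counts are given for it here.

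Per kilobase of canonical transcript, CDKN2C was the most abundant of these mRNAs in DMSO, at 87.3 ± 8.42 CPM per kilobase (SD, n = 4), where CPM are counts scaled to a library total of 1e6. CDKN1B followed at 71.3 ± 8.23, and the sample ranges of these neighbours overlapped (75.7 to 95.3 and 62.3 to 78.3). CDKN2A stood at 37 ± 2.74, CDKN1A at 17.4 ± 1.12, CDKN2D at 13.7 ± 0.863, CDKN2B at 2.34 ± 0.228 and CDKN1C at 0.25 ± 0.0809, with no overlap between neighbours from CDKN1B downwards. Places in these orders depend on the length used. Divided by all annotated exon bases, the mean of CDKN2A in DMSO was 9.3 CPM per kilobase, below CDKN2D (13) and CDKN1A (12.3). In RA the order began with CDKN2C (70.5 ± 11.4) and CDKN1B (70.1 ± 8.77), whose ranges overlapped, and CDKN1A (45.4 ± 7.95) now stood above CDKN2A (32.8 ± 2.87) and CDKN2D (15.9 ± 0.634). In PB the order was CDKN1B (47.4 ± 7.85), CDKN2A (31.6 ± 3.27), CDKN2C (28.3 ± 5.88), CDKN1A (12.2 ± 2.11) and CDKN2D (11.8 ± 1.22). In PB the ranges of CDKN2A and CDKN2C overlapped, as did those of CDKN1A and CDKN2D. In PB+RA it was CDKN1B (42.3 ± 9.04), CDKN1A (37.6 ± 7.63), CDKN2A (26.9 ± 5.69), CDKN2C (21 ± 7.96), CDKN2D (14.4 ± 1.61) and CDKN2B (6.25 ± 0.997). CDKN2C thus went from the first to the fourth place and CDKN1A from the fourth to the second, although neighbouring ranges from CDKN1B down to CDKN2D overlapped in PB+RA. By all exon bases CDKN1A came first in RA (32.1, before CDKN2C at 23.3 and CDKN1B at 18.2) and in PB+RA (26.6, before CDKN2D at 13.6 and CDKN1B at 11).

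The summed level of the 7 mRNAs was 229 ± 15.2 CPM per kilobase in DMSO, 239 ± 9.85 in RA, 134 ± 11.4 in PB and 149 ± 5.83 with both agents (SD, n = 4). The INK4 sum was 140 ± 8.67 in DMSO, 123 ± 8.76 in RA, 74.8 ± 4.63 in PB and 68.6 ± 2.51 with both agents. The CIP/KIP sum was 89 ± 7.27 in DMSO, 116 ± 1.19 in RA, 59.6 ± 7 in PB and 80 ± 3.9 with both agents. By all exon bases the CIP/KIP sum was higher in PB+RA than in DMSO (37.6 ± 3.38 against 31.1 ± 1.49), so its direction there depends on the length used. By that length the INK4 sum was 31.4 ± 2.13 in PB and 33.3 ± 1.6 in PB+RA, a difference within the spread between replicates and opposite in sign to that by canonical length, and the sum of all 7 was 84.4 ± 4.72 in DMSO and 101 ± 1.05 in RA. This alternative was chosen after seeing the data. By canonical length CDKN2C made up 38% ± 1.3 of the summed level in DMSO and 14% ± 4.87 in PB+RA. CDKN1A made up 7.65% ± 0.916 in DMSO and 25.4% ± 5.65 in PB+RA, and by all exon bases 14.7% ± 1.56 and 37.3% ± 6.35. The make-up of the pool in PB+RA was therefore richer in CDKN1A and poorer in CDKN2C than in DMSO, by more than the spread between replicates by either length.

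**Figure D1:**
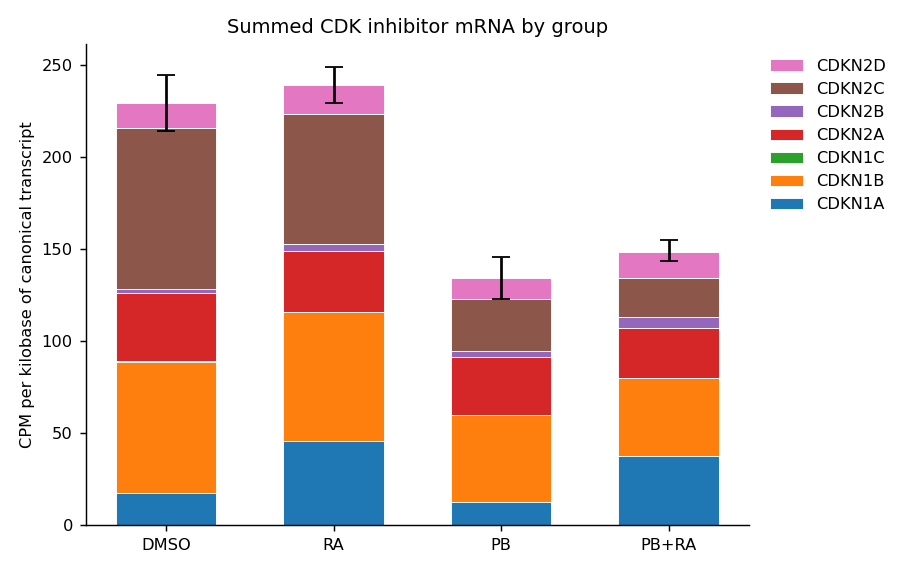
Stacked bars of the mean level of the 7 CDK inhibitor mRNAs in CPM per kilobase of canonical transcript (y axis) in each group (x axis), with the SD of the sum over 4 samples as the error bar. The bars reach 229 in DMSO, 239 in RA, 134 in PB and 149 with both agents, and the CDKN2C segment narrows in both groups with palbociclib.

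The first question was how each agent alone changes these genes. A gene was called changed at an adjusted p below 0.05 with an absolute log2 fold change above 0.5, and each adjusted p given here comes from the quasi-likelihood test of edgeR, adjusted after Benjamini and Hochberg over all 15415 genes. Unless a block is named, that test does not pair the replicates. After RA, 2 of the 7 members rose, where 10.8% of all genes tested did. None fell, where 2.54% of all genes did, and at an unadjusted p below 0.05 the count of members lower was also 0, as it was by DESeq2 and limma-voom. The median log2 fold change of the members was 0.21, beside 0.01 for all genes. It includes the fitted value of the barely expressed CDKN1C (0.52), which pulls it up.

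CDKN1A encodes p21, a CIP/KIP inhibitor of CDK2, and was the member most raised by RA. It was at 39.6, 38.2, 35.2 and 34.7 CPM in DMSO replicates 1 to 4 and at 97, 119, 85.2 and 82.5 CPM in RA. All RA samples were above all DMSO samples, and replicate 2 was the highest of the RA samples. The log2 fold change was 1.37 ± 0.15 (SE, adjusted p = 7.38e-06), a fold of 2.59.
CDKN2B encodes p15, an INK4 protein known as a target of TGF-β signalling. It was at 10.2, 8.76, 8.92 and 8.17 CPM in DMSO and at 17.4, 15, 11.9 and 14.6 CPM in RA, again without overlap. Its log2 fold change in RA was 0.70 ± 0.15 (adjusted p = 0.00159).

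The other 5 members were not called after RA. CDKN1B, which encodes p27, was at 160, 150, 189 and 189 CPM in DMSO and at 166, 140, 184 and 185 CPM in RA. The groups overlapped throughout, and the 95% interval of the log2 fold change was -0.35 to 0.28. CDKN2C, which encodes p18, was at 86.7, 75.3, 94.8 and 90.6 CPM in DMSO and at 69.2, 54.8, 80.7 and 76.1 CPM in RA. RA was the lower value within each of the 4 replicates, but the groups overlapped and the log2 fold change was -0.32 (95% interval -0.77 to 0.14, adjusted p = 0.269). A fit with the replicate number as a block gave -0.33 (-0.55 to -0.10, adjusted p = 0.0186), a fall under the minimum for a call. CDKN2D, which encodes p19, was at 20.3, 17.7, 19.9 and 20.2 CPM in DMSO and at 23.9, 21.8, 22.8 and 22.4 CPM in RA. These groups did not overlap, yet the log2 fold change was 0.21, with an adjusted p of 0.0762 (0.0166 with the block). CDKN2A was at 31, 36.3, 31 and 30.1 CPM in RA and 36.1, 38, 38 and 32.4 CPM in DMSO, with overlapping groups and a log2 fold change of -0.18 (95% interval -0.44 to 0.08). For the barely expressed CDKN1C it was 0.52 (95% interval -0.40 to 1.43).

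**Figure D2:**
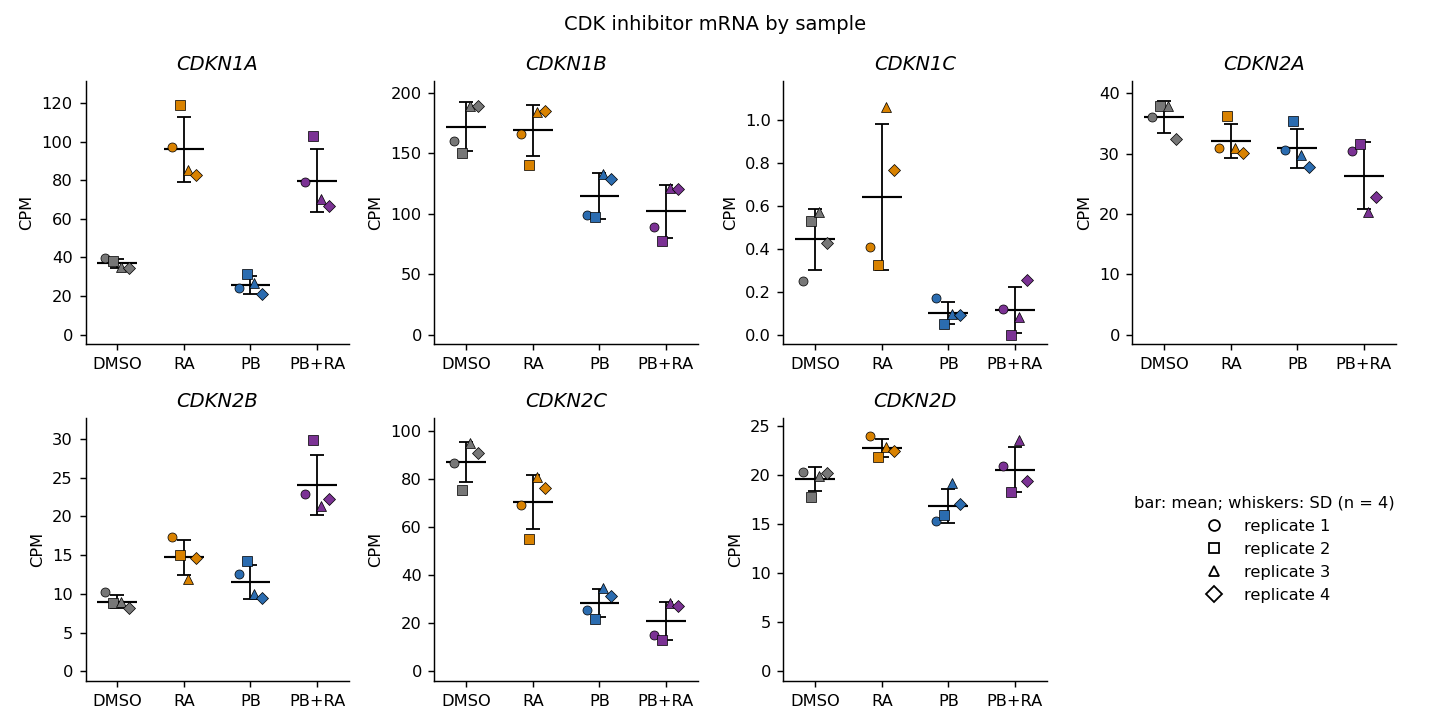
CPM (y axis, one panel per gene with its own scale) of the 7 CDK inhibitor genes in each of the 16 samples, by group (x axis), with a marker shape per replicate, the group mean as a bar and the SD (n = 4) as whiskers. CDKN1A is above 80 in every RA sample and below 40 in every DMSO sample, and CDKN2C is below 35 in every sample with palbociclib.

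After PB, 3 of the 6 members other than CDKN1C fell, where 11.3% of all genes tested did (4 of 7 with CDKN1C). None rose, where 16.9% of all genes did. By DESeq2 and by limma-voom none rose either, and at an unadjusted p below 0.05, 1 member was higher (CDKN2B). The median log2 fold change of the members was -0.52, beside 0.03 for all genes. It includes the fitted value of CDKN1C (-2.05), which pulls it down. CDKN2C fell the most among the well expressed members. It was at 25.4, 21.6, 34.7 and 31.1 CPM in PB replicates 1 to 4, below every DMSO and RA sample. The log2 fold change against DMSO was -1.62 ± 0.22 (adjusted p = 1.96e-05), a ratio of 0.325 to the DMSO level. Replicates 1 and 2 were below replicates 3 and 4 in PB, as in each of the other 3 groups.

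CDKN1B was at 98.5, 97.2, 133 and 129 CPM in PB, below all DMSO samples, with a log2 fold change of -0.59 ± 0.15 (adjusted p = 0.0038). CDKN1A was at 24.2, 31.4, 26.6 and 20.8 CPM in PB, also below all DMSO samples, and its log2 fold change was -0.52 ± 0.15 (adjusted p = 0.00922), only just past the minimum of 0.5. Without PB replicate 4 the CDKN1A value was -0.46 and no longer called. With replicates 1 and 2 alone it was -0.50 with an adjusted p of 0.0509, and with replicates 3 and 4 alone -0.61. With the replicate number as a block it was -0.53 (95% interval -0.69 to -0.38, adjusted p = 4.27e-06). That interval excludes 0 and spans the minimum for a call.

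CDKN1C, the imprinted gene of p57, had 7, 13, 18 and 11 reads in DMSO, 10, 8, 28 and 17 in RA, 4, 1, 2 and 2 in PB and 3, 0, 2 and 5 in PB+RA. It passed the filter only through its DMSO and RA samples, so its fitted falls are not used as tests here. The PB samples held 9 reads in all against 49 in DMSO, mostly at or below the floor of 3 reads a sample. In CPM, all PB samples were below all DMSO samples, while PB+RA overlapped DMSO (0.256 CPM in PB+RA replicate 4, 0.248 CPM in DMSO replicate 1).

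CDKN2B went the other way from these genes in PB without reaching the call. It was at 12.5, 14.2, 9.98 and 9.46 CPM in PB, higher than DMSO within each of the 4 replicates but with overlapping groups, and the log2 fold change was 0.35 (95% interval 0.04 to 0.67, adjusted p = 0.0525). CDKN2A was at 30.7, 35.4, 29.8 and 27.8 CPM in PB, with a log2 fold change of -0.23 (adjusted p = 0.133). CDKN2D was at 15.3, 15.9, 19.2 and 17 CPM in PB, with a log2 fold change of -0.21 (adjusted p = 0.0606). Both were lower than DMSO within each of the 4 replicates, with overlapping groups. In the fit with the replicate block the adjusted p was 0.0075 for CDKN2B, 0.0177 for CDKN2A and 0.016 for CDKN2D. All 3 log2 fold changes stayed under the minimum for a call.

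**Figure D3:**
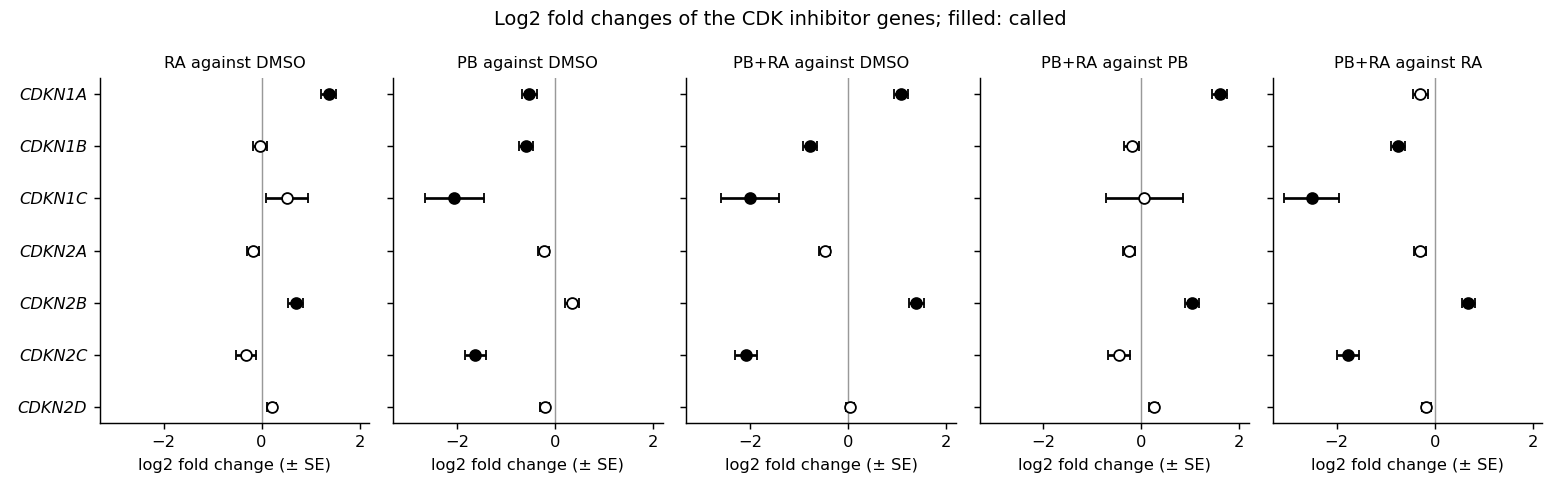
Log2 fold change (x axis) with its SE for each CDK inhibitor gene (rows) in the 5 comparisons (panels), with filled points for called genes and open points for the others. CDKN1A is at 1.37 in RA and -0.52 in PB, and CDKN2C is at -1.62 in PB and -2.08 in PB+RA. The filled points of CDKN1C rest on few reads, and its falls are not used as tests.

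The next question was what the combination adds. Against DMSO, 2 members were higher in PB+RA, where 24% of all genes tested were, and 2 were lower, where 17.9% were (3 with CDKN1C). The median log2 fold change of the members was -0.48, beside 0.04 for all genes. It includes the fitted value of CDKN1C (-2), which pulls it down. CDKN2B was the member most raised, at 22.9, 29.8, 21.3 and 22.3 CPM in PB+RA, above every sample of the other 3 groups, with a log2 fold change of 1.39 ± 0.15 against DMSO (adjusted p = 3.2e-07). CDKN1A was at 78.9, 103, 70.4 and 66.7 CPM, above all DMSO and PB samples and overlapping RA, with a log2 fold change of 1.08 ± 0.15 against DMSO (adjusted p = 9.76e-06).

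CDKN2C was at 15.2, 13, 28.3 and 27.1 CPM in PB+RA, with a log2 fold change of -2.08 ± 0.23 against DMSO (adjusted p = 9.43e-07). Its samples fell into a lower pair, replicates 1 and 2, and a higher pair, replicates 3 and 4, and the log2 fold change was -2.55 within the first pair and -1.81 within the second. CDKN1B was at 89.3, 77.7, 121 and 120 CPM, with a log2 fold change of -0.78 ± 0.15 (adjusted p = 0.000279). CDKN1C had 10 reads over the 4 PB+RA samples.
CDKN2A was at 30.4, 31.7, 20.4 and 22.8 CPM in PB+RA, lower than all DMSO samples. Its log2 fold change was -0.48 ± 0.12 with an adjusted p of 0.00246, just under the minimum of 0.5, and it was called by DESeq2 and by limma-voom (both -0.50). It differed between the pairs of replicates, at -0.28 with replicates 1 and 2 alone and -0.78 with replicates 3 and 4 alone. CDKN2D was at 20.9, 18.2, 23.5 and 19.4 CPM, and its log2 fold change of 0.04 had a 95% interval of -0.15 to 0.23.

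Adding RA to PB again raised CDKN1A and CDKN2B, in a comparison that shares no samples with that of RA and DMSO. Both comparisons come from 1 fit, and same-numbered samples were taken as paired, so they are not independent. Against PB, 2 members rose, where 9.02% of all genes tested did, and 0 fell, where 7.27% did. The count lower was also 0 at an unadjusted p below 0.05, by DESeq2 and by limma-voom. CDKN1A rose by 1.60 ± 0.15 on the log2 scale (adjusted p = 1.22e-06) and CDKN2B by 1.03 ± 0.14 (adjusted p = 4.11e-05). CDKN2C was lower in PB+RA than in PB within each of the 4 replicates, by 0.73 in replicates 1 and 2 and by at most 0.29 in the others, as differences of log2(CPM + 0.1). Over all samples its log2 fold change was -0.46 (95% interval -0.95 to 0.02, adjusted p = 0.121). The replicate block gave -0.49 for CDKN2C (-0.75 to -0.22, adjusted p = 0.00445), just under the minimum. It was called without PB+RA replicate 3 (-0.65) and with replicates 1 and 2 alone (-0.75). CDKN2D was higher in PB+RA than in PB within each of the 4 replicates, and its log2 fold change of 0.25 (adjusted p = 0.0368) was under the minimum for a call. CDKN1B (-0.20, 95% interval -0.52 to 0.13), CDKN2A (-0.26, adjusted p = 0.113) and CDKN1C (0.06, 95% interval -1.62 to 1.73) were not called. Block intervals were -0.31 to -0.09 for CDKN1B (adjusted p = 0.00393) and -0.44 to -0.09 for CDKN2A (adjusted p = 0.0122), both under the minimum.

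Adding PB to RA lowered 2 members (3 with CDKN1C), where 14.1% of all genes tested fell, and raised 1, where 14.9% rose. CDKN2C fell by 1.77 on the log2 scale (SE 0.23, adjusted p = 9.34e-06) and CDKN1B by 0.75 (SE 0.15, adjusted p = 0.000608). CDKN2B rose by 0.69 ± 0.14 (adjusted p = 0.000646). CDKN1A was lower in PB+RA than in RA within each of the 4 replicates, by 0.22 to 0.31 as differences of log2(CPM + 0.1), but the log2 fold change of -0.29 was not called (95% interval -0.60 to 0.02, adjusted p = 0.107). Its block interval was -0.43 to -0.15 (adjusted p = 0.00085), a small fall under the minimum for a call. CDKN2A had a log2 fold change of -0.30 (adjusted p = 0.0475), under the minimum for a call, and -0.52 with replicates 3 and 4 alone, where it was called. That of CDKN2D was -0.17 (adjusted p = 0.124).

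**Figure D4:**
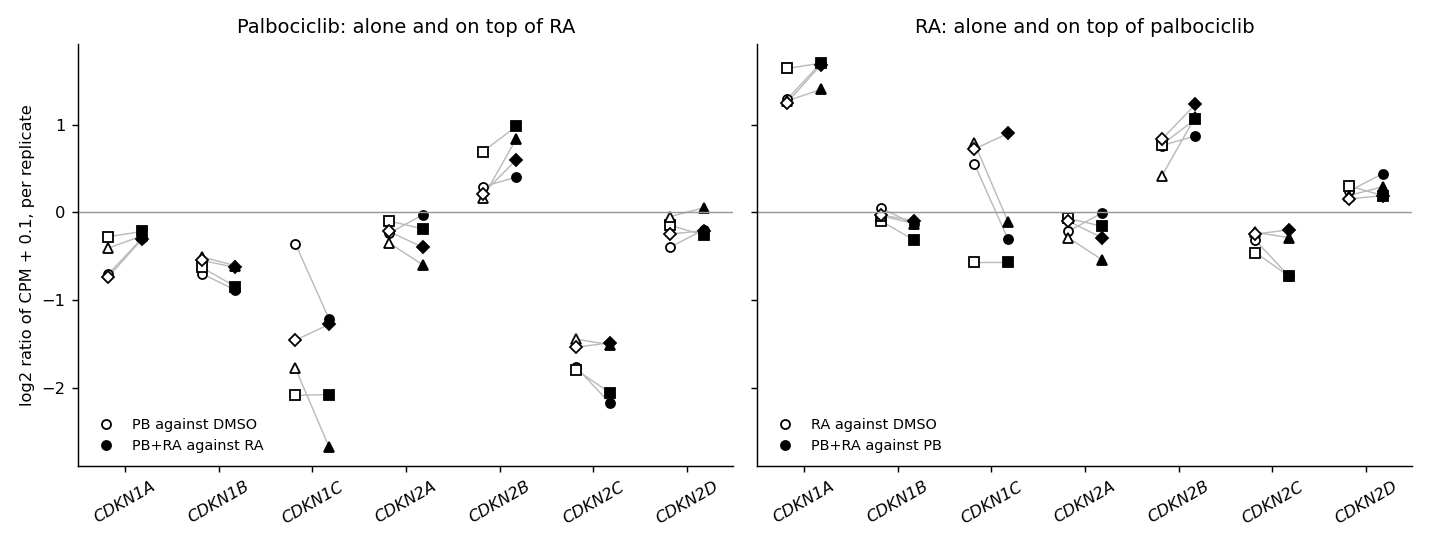
Log2 ratio of CPM + 0.1 within each replicate (y axis, a marker shape per replicate) for the 7 CDK inhibitor genes (x axis), with open markers for an agent alone and filled markers for the same agent on top of the other. CDKN2C is below -1.4 in all 8 palbociclib ratios, and CDKN1A is above 1.2 in all 8 RA ratios.

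The interaction asks whether the effect of both agents together, on the log2 scale, departs from the sum of the effects of each alone. No member was called, where 0.415% of all genes tested were above additive and 3.02% below. The count was also 0 at an unadjusted p below 0.05, by DESeq2 and by limma-voom. The interaction of CDKN1A was 0.23 (95% interval -0.22 to 0.68), that of CDKN1B -0.16 (-0.61 to 0.29), that of CDKN2B 0.33 (-0.10 to 0.77) and that of CDKN2C -0.15 (-0.81 to 0.51). With the replicate number as a block the intervals were narrower, at 0.03 to 0.45 for CDKN1A, -0.32 to -0.01 for CDKN1B, 0.05 to 0.64 for CDKN2B and -0.51 to 0.19 for CDKN2C. The first 3 of these exclude 0 before adjustment, but with the block none of the 4 was called either (adjusted p of 0.118, 0.15, 0.102 and 0.575). That of CDKN2A was -0.08 (-0.45 to 0.29), that of CDKN2D 0.04 (-0.23 to 0.31) and that of CDKN1C -0.46 (-2.42 to 1.5). With replicates 3 and 4 alone, CDKN2B was called above additive (0.57, adjusted p = 0.033).

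Of 13 kinases and cyclins to which the inhibitors bind, 12 were tested. PB raised 1 and lowered 6, RA raised 1 and lowered 2, and PB+RA raised 2 and lowered 8. For this list and those that follow, the shares of all genes tested were 16.9% raised and 11.3% lowered in PB, 10.8% and 2.54% in RA and 24% and 17.9% in PB+RA. CCND1, cyclin D1, the partner of CDK4 and CDK6, went from 1526 ± 263 CPM in DMSO to 2667 ± 395 in PB (log2 fold change 0.81 ± 0.16, adjusted p = 0.000515). CDK4, which INK4 proteins bind, had a log2 fold change of -0.59 ± 0.047 in PB+RA (adjusted p = 1.12e-08) and was not called in PB (-0.28). CDK2, the kinase inhibited by p21 and p27, fell from 80.5 ± 4.04 CPM in DMSO to 19.5 ± 5.4 in PB and 10.9 ± 4.11 with both agents (-2.04 ± 0.21 and -2.93 ± 0.22). Its cyclins CCNE2 and CCNA2 had log2 fold changes of -3.38 ± 0.17 and -3.01 ± 0.11 in PB+RA. CCNE1, the other cyclin E gene, was not called in PB (0.24) or PB+RA (-0.23), and was at 28.2 ± 2.05 CPM in PB. Of the 12, 6 were called below additive, among them CDK1, the mitotic kinase (interaction -1.03 ± 0.16, adjusted p = 0.00144).

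**Figure D5:**
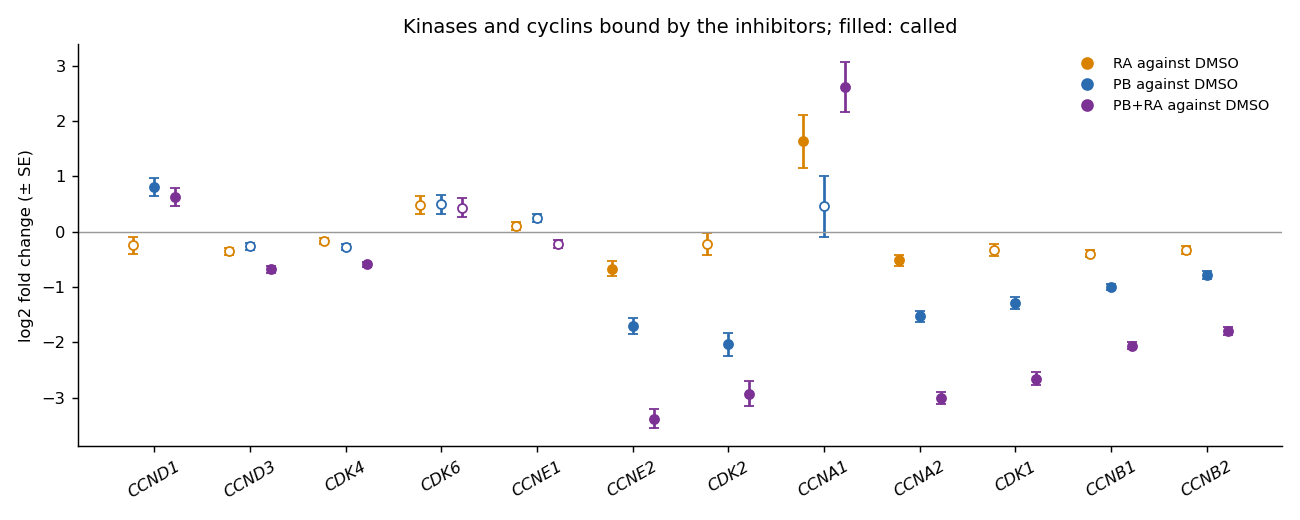
Log2 fold change against DMSO with its SE (y axis) of the 12 tested kinases and cyclins bound by the inhibitors (x axis) in RA, PB and PB+RA, with filled points for called genes. CCNE2 reaches -3.38 in PB+RA and CCND1 lies at 0.81 in PB, and the high point of CCNA1 rests on a mean of 0.589 CPM.

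Of 16 genes that act on the turnover of the CIP/KIP proteins, PB raised 1 and lowered 6, and PB+RA raised 1 and lowered 7. RA changed 0 in either direction by edgeR, DESeq2 or limma-voom, and at an unadjusted p below 0.05, 1 was higher and 9 were lower in RA. SKP2, the F-box protein that marks p27 for degradation, fell by 0.84 (SE 0.062, adjusted p = 1.42e-08) in PB, from 223 ± 6.46 CPM in DMSO to 125 ± 8.3. It was at 88.8 ± 8.45 CPM in PB+RA. CDC20, an activator of the anaphase-promoting complex, fell by 1.22 (SE 0.11) in PB, and PCNA, the replication clamp on which p21 is recognised for degradation, by 1.49 (SE 0.14). DTL, the adaptor that recognises p21 there, fell by 1.78 (SE 0.09) in PB+RA. RNF123, a ubiquitin ligase of p27, was the gene that rose (0.73 ± 0.073 in PB). The transcripts of CDKN1B and of SKP2 were thus both lower after PB, and protein was not measured in these files.

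Among 33 transcriptional regulators of the inhibitor genes, 31 were tested. RA raised 5 and lowered 0 (also 0 by DESeq2 and limma-voom, and 4 at an unadjusted p below 0.05), PB raised 3 and lowered 8, and PB+RA raised 8 and lowered 9. The 8 of 31 raised in PB+RA are near the 24% of all genes. SMAD3, a transducer of TGF-β signals to CDKN2B, was at 50 ± 4.67 CPM in DMSO and rose to 140 ± 9.36 CPM with RA (1.47 ± 0.074) and to 130 ± 7.56 CPM with both agents (1.36 ± 0.074). ETS1 rose by 1.36 ± 0.26 in RA, and FOXO3, a forkhead factor known to act on CDKN1A and CDKN1B, by 0.72 ± 0.09 in RA and 0.60 ± 0.09 in PB. EZH2, the Polycomb methyltransferase that silences the CDKN2A and CDKN2B locus, fell from 121 ± 1.76 CPM in DMSO to 45.5 ± 7.45 in PB (-1.41 ± 0.10). In PB the log2 fold changes of CDKN2A and CDKN2B were -0.23 and 0.35, neither called. SP1, a factor that binds GC boxes, fell by 0.71 (SE 0.09) in PB. MYCN, amplified in this line and known to repress CDKN1A, rose by 0.90 ± 0.13 in PB, where CDKN1A fell, and by 0.57 ± 0.13 in PB+RA, where CDKN1A rose. The part of MYCN or of the other regulators in the changes of the members was not tested.

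Of 18 other brakes on the cell cycle, 17 were tested, and PB raised 3 and lowered 5, RA raised 1 and lowered 1 and PB+RA raised 2 and lowered 9. BTG2, an antiproliferative gene, rose in all 3 groups, by 1.51 ± 0.073 in PB, 0.61 ± 0.072 in RA and 2.11 ± 0.073 in PB+RA. GADD45G rose by 1.35 ± 0.22 in PB. RBL1, which encodes the retinoblastoma relative p107, fell by 1.30 (SE 0.093) in PB and by 2.14 (SE 0.096) in PB+RA. CDKN3, a phosphatase that is no member of either inhibitor family in spite of its symbol, fell by 1.23 (SE 0.092) in PB, and PKMYT1, an inhibitory kinase of CDK1, by 0.91 (SE 0.11).

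Of 21 genes around the inhibitor loci, some of them at a distance, 16 were tested. RA raised 3 and lowered 0 (3 at an unadjusted p below 0.05, and 0 by DESeq2 and limma-voom). PB raised 1 and lowered 3, and PB+RA raised 4 and lowered 5. The 4 of 16 raised in PB+RA are near the 24% of all genes. SRSF3, near CDKN1A, fell by 0.79 (SE 0.06) in PB and by 1.17 (SE 0.061) in PB+RA, while CDKN1A rose in PB+RA. FAF1, next to CDKN2C, fell by 0.55 (SE 0.056) in PB+RA, against 2.08 for CDKN2C. APOLD1, next to CDKN1B and at a mean of 7.03 CPM, had log2 fold changes of -0.65 ± 0.12 in PB and -0.76 ± 0.12 in PB+RA, both called, beside -0.59 and -0.78 for CDKN1B. GPR19, whose annotated span overlaps that of CDKN1B on the opposite strand without shared exon bases, had a log2 fold change of 0.11 in PB (not called) and of 0.63 ± 0.087 in PB+RA. IGF2, on the chromosome of CDKN1C but not directly next to it (chr11:2150342-2179621), rose by 0.99 ± 0.21 in RA.

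Of 14 proliferation markers, all 14 were lower in PB and in PB+RA, with medians of -1.19 and -2.52, and 0 of 14 were called in RA by edgeR (median -0.33). In RA, 11 were lower at an unadjusted p below 0.05, 3 were called lower by DESeq2 and 1 by limma-voom. Their summed level was 3146 to 3271 CPM in DMSO, 2463 to 2681 in RA, 1350 to 1637 in PB and 569 to 815 with both agents. The group means of CDKN2C, CDKN1B and CDKN2A ran in the same order as these sums (DMSO, RA, PB, PB+RA from high to low). Those of CDKN1A and CDKN2B did not. Some steps of that order were within the spread between replicates. CDKN1B was at 172 ± 19.8 CPM in DMSO and 169 ± 21.1 in RA, and CDKN2A at 32.1 ± 2.81 in RA and 30.9 ± 3.2 in PB. The part of the shift in proliferation markers in the changes of CDKN2C and CDKN1B was not tested.
Of 10 adrenergic markers, all 10 were detected in every sample, PB raised 5 and lowered 1 and RA raised 3 and lowered 2. Their summed level ranged from 4226 to 5541 CPM over DMSO and RA samples and from 6865 to 10509 over samples with PB. Of 10 mesenchymal markers, 9 were tested, PB raised 2 and lowered 4 and RA raised 3 and lowered 1. Their sum was 1163 to 1458 CPM in DMSO, 1911 to 2398 in RA, 1041 to 1164 in PB and 1181 to 1637 in PB+RA. FN1, fibronectin, was at 733 ± 157 CPM after RA against 175 ± 49.5 after the vehicle (2.06 ± 0.27), and LUM, lumican, at 22.1 ± 7.52 against 44.8 ± 14.3 CPM (-1.03 ± 0.29). Of 10 immune, endothelial and epithelial markers, 6 were tested, and PTPRC, CD3E, PECAM1 and CDH1 were not. Their sum was 17.3 to 22.3 CPM in DMSO, 47.6 to 74.5 in RA, 18.1 to 28.7 in PB and 41.7 to 74.4 with both agents, of which KRT18 made up 41.3 ± 9.24 CPM in RA. RA raised 3 of these 6 and lowered 0, also at an unadjusted p below 0.05 and by DESeq2 and limma-voom. The part of any of these lists in the changes of CDKN1A and CDKN2B was not tested.

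The genes most like each member were taken by Pearson's r of log2(CPM + 1) over the 16 samples, as a description, since samples of 1 group share a treatment and samples of 1 number a replicate. CDKN2C was closest to RAD21, a cohesin subunit (r = 0.993, group means of 345 CPM in DMSO, 313 in RA, 212 in PB and 187 with both agents), then to ARL6IP6 (r = 0.993) and NFATC3 (r = 0.991). CDKN1B was closest to CTCF, the insulator protein (r = 0.984), then to H3-3B (r = 0.983) and METTL9 (r = 0.979). CDKN1A was closest to FXYD5 (r = 0.978, with 6.21, 22.6, 4.98 and 17.8 CPM in DMSO, RA, PB and PB+RA), TNFRSF1A (r = 0.971) and PDLIM7 (r = 0.968). CDKN2B was closest to PLEKHA6 (r = 0.969), HBEGF (r = 0.966, with 10, 26.1, 17.1 and 49.2 CPM) and KCNMA1 (r = 0.964). The 2 members with few changes had looser partners, CD320, RNF8 and ELP6 for CDKN2A (r = 0.945 to 0.946) and IFNAR2, PGRMC1 and ANO8 for CDKN2D (r = 0.899 to 0.916).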

How the data were processed

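RNA-seq was measured in 16 samples of SK-N-BE(2)C, 4 replicates in each of 4 groups named in the titles. The authors describe polyadenylated RNA and directional libraries, with reads trimmed by Trim Galore 0.6.4 and aligned to hg19 (GRCh37) with STAR. The deposited record gives STAR 2.6.1d, and the paper lists another release of it. The deposited counts are raw reads per gene, and the deposited CPM are those counts scaled to the sample's sum (they equalled count over total within 5e-12). The annotation release and the strand column are not given in the sources used here. A deposited table of the authors' own comparisons, with log2 fold changes and p-values from DESeq2 1.32.0, was not used. The total count per sample (19515779 to 31620821) puts 3 reads, taken as the floor, at 0.0949 to 0.154 CPM.

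Tests used R 4.3.3 and edgeR 4.0.16. Genes were kept by filterByExpr, libraries were scaled by TMM, and all 16 samples entered 1 robust quasi-likelihood fit with a coefficient per group. Benjamini-Hochberg adjustment ran over 15415 genes. A call needed an adjusted p below 0.05 and a log2 fold change beyond 0.5 in either direction. Standard errors are the absolute log2 fold change over the square root of F. Levels per kilobase used canonical transcripts of GENCODE lifted to GRCh37. Alternatives included DESeq2 1.42.0 and limma 3.58.1 (voom), other scalings and filters, left-out samples and a replicate block. The script was tested on simulated data.

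According to the study, replicates are separate passages. Deviations from the group mean correlated in all 24 same-numbered pairs (r = 0.330 to 0.573) and at -0.492 to 0.447 in the 72 others, so the numbers were taken to pair the samples. Beyond the 7 members, genes were named by rule: from each list, up to 3 largest rises and falls per comparison among the called ones that averaged 10 CPM or more over all samples, and the 3 genes most correlated with each member of at least 1 CPM. CDK4, CCNE1, APOLD1, FN1, LUM, KRT18 and the antisense genes were named outside this rule, after their values were seen. The members and lists were chosen with earlier results of these data known. 1 of the lists and 1 background item are not reported here.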

Additional observations from a re-analysis of the deposited data

Results flagged for a closer look

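In each of the 28 sets of 4 samples (7 genes in 4 groups), the highest and the lowest sample were compared with the others by Dixon's ratio, which flags about 1 in 20 sets by chance. CDKN2A in RA replicate 2 was at 36.3 CPM, above the other RA samples at 30.1 to 31. CDKN2D in DMSO replicate 2 was at 17.7 CPM, below the other DMSO samples at 19.9 to 20.3. No member moved one way in every replicate under an agent alone and the opposite way in every replicate under the same agent on top of the other.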

How the results depend on the processing

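Each log2 fold change of a member was recomputed under every alternative, 837 values in all, of which 801 kept their direction and their side of the threshold. None of the 17 called values, those of CDKN1C among them, reversed. With replicates 1 and 2 alone, 2 members were called in PB against DMSO in place of 4 (CDKN1A and CDKN1C lost the call), and with replicates 3 and 4 alone 1 member (CDKN2B) was called in the interaction in place of 0. Fewer samples enter those fits, and the cause was not tested. No other alternative moved a total count of called members by over 1.5 times, including the count without CDKN1C, which was chosen after seeing the data. By direction, the count lower in PB+RA against PB went from 0 to 1 (CDKN2C) with replicates 1 and 2 alone (-0.75), without PB+RA replicate 3 (-0.65) and with the block and GC and length correction. The fit with a replicate block changed no call of a member (CDKN1A in PB against DMSO was -0.53 and CDKN2A in PB+RA against DMSO -0.50). Its intervals were narrower, and several differences that were not called then excluded 0, with log2 fold changes under the minimum of 0.5. With the block and a correction for GC content and length together, CDKN2A in PB+RA against DMSO (-0.59) and CDKN2C in PB+RA against PB (-0.50) were called. CDKN2A in PB+RA against DMSO was also called at -0.50 to -0.78 under RLE size factors (-0.50), no filter (-0.52), the GC and length correction (-0.58), only the groups compared (-0.50), and without DMSO replicate 4 (-0.54) or PB+RA replicate 1 (-0.59) or 2 (-0.61). The reversed values all belonged to differences that were not called. With replicates 1 and 2 alone, CDKN1C was -0.07 in RA and -0.82 in PB+RA against PB (-0.31 by limma-voom), and the interaction of CDKN2A was 0.04. With replicates 3 and 4 alone, the interaction of CDKN2C was 0.03. Leaving out each sample in turn, CDKN1B in RA against DMSO ranged from -0.10 to 0.03, CDKN2D in PB+RA against DMSO from -0.06 to 0.07 and CDKN1C in PB+RA against PB from -0.56 to 0.45. The interactions ranged from -0.17 to 0.04 for CDKN2A, -0.33 to 0.03 for CDKN2C and -0.02 to 0.16 for CDKN2D. Geometric means moved 27 of 27 group levels by less than 1 SD. With at most 28 reads in a sample, CDKN1C is the member whose depth limits every statement.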
